A study of Mus musculus with 6 samples.

Results

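The genes described here are 7 germ-cell genes for RNA-binding proteins that act on the translation or stability of messenger RNA: Dazl, Boll, Rbm46, Cpeb1, Nanos2, Nanos3 and Dnd1. They were taken by name from a list, through the gene symbols of the array's platform annotation. Earlier results of these data were known when the members were chosen. Each was read by 1 probe set, a group of array probes for 1 transcript, that carried its symbol alone, and all 7 were measured among 19938 genes. The transcripts were read on 6 one-colour Affymetrix arrays, all of the mouse embryonic stem cell line V6.5, a self-renewing line that is not a germ cell. The induced Pcgf6-hairpin group held 2 arrays (shRNA1 and shRNA2, each +dox), the uninduced Pcgf6-hairpin group held 2 (shRNA1 and shRNA2, each -dox), and the Scrambled hairpin, a control sequence, had 1 array +dox and 1 -dox. Doxycycline (dox), which switches the hairpin on, was given at 1 µg/ml. Per the labels' protocols all cultures, controls included, shared a layer of mitomycin-treated DR4 fibroblasts as feeder cells and a medium with serum and leukemia inhibitory factor. Each of the 2 arrays in a Pcgf6-hairpin group had its own hairpin sequence. Neither separate cultures nor clones are named in the labels, so every error and p-value describes the spread between these arrays. Within a Pcgf6-hairpin group that spread includes any difference between the 2 hairpins, and the rest may be technical. Values are log2 expression, on which a difference of 1 is a 2-fold change, and the number of arrays limits the precision.

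Germ cells store and time many of their messages after transcription, and the proteins of these genes decide when a message is read or destroyed. Dazl and Boll encode 2 members of the DAZ family, which bind messages through an RNA recognition motif and favour their translation. Rbm46 and Cpeb1 act in meiotic and oocyte messages, while the zinc-finger proteins of Nanos2 and Nanos3, with their partner from Dnd1, bring messages to the deadenylase complex that shortens poly(A) tails. PCGF6, the target of the hairpins, is a subunit of PRC1.6, a polycomb complex known for keeping germline genes silent in stem cells. The complex holds the DNA-binding proteins MGA, MAX and E2F6.

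The knockdown and the cell type were examined first. Pcgf6 measured 9.39 and 9.27 with dox under hairpins 1 and 2, against 11.56 and 11.70 without dox, a change of -2.30 (SE 0.10, n = 2 against 2, limma adjusted p = 0.000846). In the scrambled cells it measured 11.82 with dox and 11.80 without. The mean level of 10 stem cell markers lay between 11.81 and 12.06 on the 6 arrays, and 0 of them passed the test. The mean level of 20 fibroblast markers, which stand for the feeder cells, was 10.37 with and 10.36 without dox for hairpin 1. Hairpin 2 cells had 10.67 with and 10.23 without dox, and scrambled cells 10.05 with and 9.53 without dox. Feeder marker levels were thus higher with dox in the hairpin 2 and scrambled cells. Of the 20 markers, 0 passed in the change with dox over both Pcgf6 hairpins, against 0.201% of all genes. That test averages hairpins 1 and 2 and leaves out the scrambled pair, so the hairpin 2 and scrambled rises were not themselves tested. The values came without detection calls, so none of these markers could be read as absent.

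With dox in the Pcgf6-hairpin cells, Rbm46, Boll and Dazl rose, by 2.93-fold, 2.68-fold and 1.92-fold. The test was limma over all genes with a Benjamini-Hochberg adjusted p under 0.05, and a gene that met it is said to have passed. Cpeb1 stood at 1.72-fold and did not pass, and Nanos3, Dnd1 and Nanos2 lay between 0.95-fold and 1.17-fold and did not pass either. Of the 7 genes 3 passed as higher and 0 as lower, against 0.191% of all genes higher, 0.01% lower and 0.201% in either direction. Because the members were chosen with earlier results known, this contrast is a description and not a test of the set. The median change of the 7 genes was 0.78, against -0.01 over all genes. Cells that express a gene and RNA per cell cannot be told apart in these bulk samples, so a rise may reflect more cells or more RNA in each.

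Dazl encodes an RNA-binding protein required for germ cells of both sexes to enter meiosis. It measured 8.36 (hairpin 1) and 8.38 (hairpin 2) with dox, against 7.37 (hairpin 1) and 7.48 (hairpin 2) without, and 7.49 with and 7.62 without dox in scrambled cells. Both induced hairpin arrays were above the 4 others, the lowest of them by 0.74, and the spread within a group was small beside that gap. The rise was 0.99 under hairpin 1 and 0.90 under hairpin 2, while the scrambled pair differed by -0.13. Over both hairpins the change was 0.94 (SE 0.09, 95% interval 0.73 to 1.16, limma adjusted p = 0.0202), at place 39 of all genes counted from the highest. The call needed all 4 hairpin arrays: with any 1 left out the change stayed between 0.89 and 1.00, but Dazl did not pass. Such a fit leaves 1 array in a group, which lowers the precision for every gene. The RefSeq promoter of Dazl, 250 bases before to 50 after its start, lies at chr17:50293571-50293870 on the minus strand of GRCm38.p6. It is shown because it has 28 CpG dinucleotides and none of the 3 motifs searched for on either strand: CACGTG, the E-box that MAX-containing dimers bind; TCCCGC, the core of E2F sites; and GGTGTGA, a T-box core of the kind MGA binds.
Dazl promoter: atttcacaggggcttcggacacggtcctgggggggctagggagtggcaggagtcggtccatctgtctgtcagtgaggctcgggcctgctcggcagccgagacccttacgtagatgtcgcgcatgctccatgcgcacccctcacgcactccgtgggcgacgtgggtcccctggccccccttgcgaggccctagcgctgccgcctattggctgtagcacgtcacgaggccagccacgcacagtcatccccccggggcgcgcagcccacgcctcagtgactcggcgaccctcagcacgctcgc

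Boll encodes the DAZ family protein known in mouse for its need in spermatids. It measured 8.42 (hairpin 1) and 8.17 (hairpin 2) with dox, against 6.95 (hairpin 1) and 6.80 (hairpin 2) without. The scrambled arrays measured 6.70 with and 6.79 without dox. The groups did not overlap, and the lower induced array was 1.22 above the highest of the 4 others. The rise was 1.47 under hairpin 1 and 1.37 under hairpin 2, against -0.08 in the scrambled pair. Over both hairpins the change was 1.42 (SE 0.12, 95% interval 1.14 to 1.70, limma adjusted p = 0.0102). Boll passed with either induced array left out, but not with the uninduced array of hairpin 1 or of hairpin 2 left out. Over these 4 fits, each with 1 array left in a group, the change ran between 1.29 and 1.55. RefSeq gives Boll 2 starts, both on the minus strand of chromosome 1, and both windows are shown because each holds a different motif, in capitals. The upstream window (chr1:55363704-55364003) holds the E-box CACGTG and has 13 CpG. The downstream window (chr1:55362679-55362978) holds the E2F core TCCCGC and has 39 CpG.
Boll upstream promoter: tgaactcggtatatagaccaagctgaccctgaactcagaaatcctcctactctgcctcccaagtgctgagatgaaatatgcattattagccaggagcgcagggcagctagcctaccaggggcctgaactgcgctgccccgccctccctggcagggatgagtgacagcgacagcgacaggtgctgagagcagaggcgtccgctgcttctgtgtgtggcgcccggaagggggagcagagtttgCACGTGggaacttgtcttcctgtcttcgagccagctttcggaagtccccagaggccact
Boll downstream promoter: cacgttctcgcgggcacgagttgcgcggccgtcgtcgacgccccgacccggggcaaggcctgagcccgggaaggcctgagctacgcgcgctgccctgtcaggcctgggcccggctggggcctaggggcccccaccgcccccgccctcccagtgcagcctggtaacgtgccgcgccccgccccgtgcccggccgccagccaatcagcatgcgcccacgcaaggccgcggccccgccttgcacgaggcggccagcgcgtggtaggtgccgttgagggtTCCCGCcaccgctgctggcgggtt

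Rbm46 encodes an RNA-binding protein needed in meiotic prophase, where it works with the products of Ythdc2 and Meioc. It measured 8.21 (hairpin 1) and 8.24 (hairpin 2) with dox, against 6.78 (hairpin 1) and 6.57 (hairpin 2) without, and 6.53 with and 6.71 without dox in scrambled cells. Of the 7 genes it had the widest gap between groups, 1.43 from the lowest induced array to the highest of the others. The rise was 1.43 under hairpin 1 and 1.68 under hairpin 2, and the scrambled pair differed by -0.18. Over both hairpins the change was 1.55 (SE 0.10, 95% interval 1.31 to 1.80, limma adjusted p = 0.00339), at place 17 from the highest. Rbm46 passed without any 1 of the 4 hairpin arrays, with an adjusted p between 0.0161 and 0.0480 and a change between 1.44 and 1.66. Its promoter (chr3:82876434-82876733, minus strand, 25 CpG) is shown because it holds TCCCGC, an E2F core, and CACGTG, an E-box, in capitals, within 1 window. Of 21262 promoters of protein-coding genes in the same table, 2.7% hold both.
Rbm46 promoter: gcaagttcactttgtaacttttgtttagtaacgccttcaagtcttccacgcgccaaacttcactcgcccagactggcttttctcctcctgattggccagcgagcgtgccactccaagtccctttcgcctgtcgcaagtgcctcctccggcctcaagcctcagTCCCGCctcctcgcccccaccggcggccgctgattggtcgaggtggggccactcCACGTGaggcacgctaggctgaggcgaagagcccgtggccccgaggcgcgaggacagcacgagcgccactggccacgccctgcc

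Cpeb1 encodes the cytoplasmic polyadenylation element binding protein, which controls poly(A) tail length and translation in oocytes. It measured 8.78 (hairpin 1) and 8.84 (hairpin 2) with dox, against 8.28 (hairpin 1) and 7.76 (hairpin 2) without, and 8.27 with and 8.07 without dox in scrambled cells. The induced hairpin arrays were again above the 4 others, by at least 0.49, but the uninduced hairpin arrays differed from each other (SD 0.37, n = 2). Hairpin 1 gave a change of 0.49 and hairpin 2 one of 1.08, and the scrambled pair differed by 0.20. Over both hairpins it was 0.78 (SE 0.17, 95% interval 0.38 to 1.19), with an unadjusted p of 0.00281 and a limma adjusted p of 0.277. It did not pass under any of the 13 alternatives run, with an adjusted p between 0.154 and 0.820. Of the 4 genes with separate induced and other arrays, Cpeb1 alone was also higher with dox in the scrambled pair. The median change of the 20 feeder markers was -0.01 with hairpin 1, 0.44 with hairpin 2 and 0.56 with the scrambled hairpin, and their part in the Cpeb1 values was not tested. The promoter of Cpeb1 (chr7:81454709-81455008, minus strand, 33 CpG) is shown beside that of Rbm46, since it too holds the E-box CACGTG and the E2F core TCCCGC, here just after the start.
Cpeb1 promoter: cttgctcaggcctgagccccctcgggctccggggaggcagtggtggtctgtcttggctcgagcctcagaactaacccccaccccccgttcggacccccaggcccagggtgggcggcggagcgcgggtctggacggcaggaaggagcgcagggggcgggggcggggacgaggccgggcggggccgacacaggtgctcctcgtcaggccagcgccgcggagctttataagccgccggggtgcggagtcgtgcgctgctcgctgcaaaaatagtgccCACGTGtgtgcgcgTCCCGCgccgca

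Nanos3, needed for the survival of primordial germ cells, measured 8.34 (hairpin 1) and 8.46 (hairpin 2) with dox, against 8.02 (hairpin 1) and 8.31 (hairpin 2) without. The scrambled arrays measured 8.49 with and 8.48 without dox, above both induced hairpin arrays. The change over both hairpins was 0.23 (SE 0.12, 95% interval -0.06 to 0.52, limma adjusted p = 0.650). Dnd1, whose loss depletes primordial germ cells in mouse, measured 7.86 and 7.89 with dox under hairpins 1 and 2, against 7.85 and 7.97 without, and 8.02 with and 8.10 without dox in scrambled cells. All arrays of Dnd1 lay within 0.25, and its change was -0.03 (SE 0.09, 95% interval -0.25 to 0.18, adjusted p = 0.950). Nanos2, which holds male germ cells out of meiosis, measured 5.66 and 5.65 with dox under hairpins 1 and 2, against 5.69 and 5.78 without, and 5.73 with and 5.58 without dox in scrambled cells. Its change was -0.08 (SE 0.09, 95% interval -0.28 to 0.13, adjusted p = 0.845). The intervals of these 3 genes lie below a 1.5-fold rise, which is 0.58 on the log2 scale. The table holds no detection calls, so whether the Nanos2 signal was above background was not tested. No Dnd1 promoter was examined. Of the promoters examined, those of Nanos2 and Nanos3 are the CpG-poor ones, and that of Nanos2 is shown as the contrast (chr7:18987274-18987573, plus strand). It has 0 CpG and none of the motifs.
Nanos2 promoter: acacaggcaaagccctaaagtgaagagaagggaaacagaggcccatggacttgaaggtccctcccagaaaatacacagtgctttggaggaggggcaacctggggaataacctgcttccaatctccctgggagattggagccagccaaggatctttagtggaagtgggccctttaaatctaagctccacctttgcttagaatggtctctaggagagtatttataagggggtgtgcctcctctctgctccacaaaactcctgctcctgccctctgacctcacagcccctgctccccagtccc

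**Figure D1:**
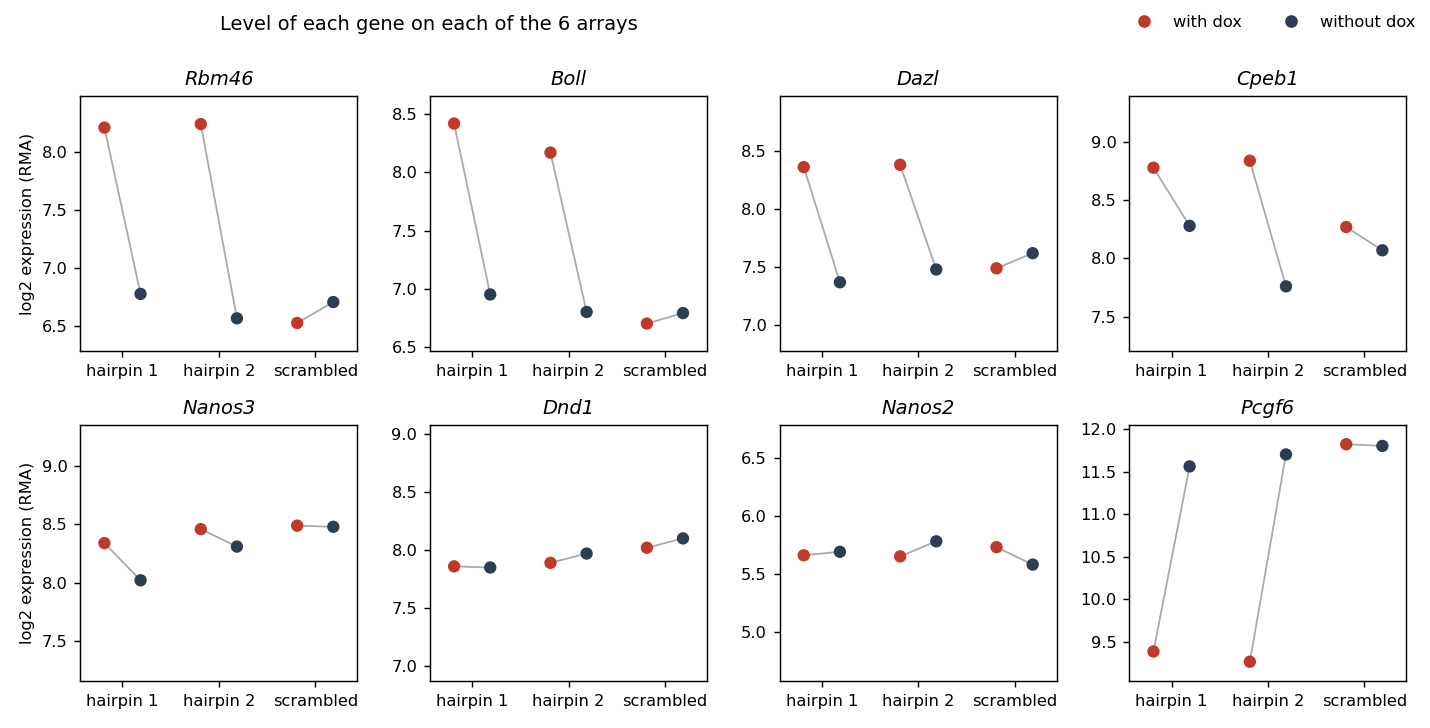
Log2 expression (y axes, each panel of a member spanning the same number of log2 units, Pcgf6 a wider one) of each gene on the 6 arrays, with dox in red left of without dox in dark blue, and a line joining the arrays of 1 hairpin. Rbm46, Boll, Dazl and Cpeb1 are higher with dox under both Pcgf6 hairpins, with scrambled arrays at the uninduced level, while Nanos3, Dnd1 and Nanos2 range over at most 0.47.

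Promoters of 6 of the 7 genes were used, matched in the RefSeq table by gene identifier, 7 windows in all. Windows on chromosome 18, where Dnd1 lies, were left out, so no Dnd1 promoter was examined. The members that passed had windows with 13 to 39 CpG, Cpeb1 had 33, and Nanos3 and Nanos2 had 3 and 0. The median over promoters of protein-coding genes was 13. At least as many CpG as in the Dazl window were found in 18.8% of those promoters, as in the Rbm46 window in 24.8%, as in the downstream Boll window in 5.8% and as in the upstream Boll window in 50.9%. For the windows of genes that did not pass, the shares were 11.3% for Cpeb1, 81.9% for Nanos3 and 100.0% for Nanos2. CACGTG, which is its own reverse complement, occurred in 7.8% of them, TCCCGC on either strand in 25.8% and GGTGTGA in 3.7%. No window of the 6 genes held GGTGTGA, and the matches within a window did not overlap. Counting the annotated start as base 1, the E-box of Rbm46 begins at -34, that of the upstream Boll window at -9 and that of Cpeb1 at 25. These are matches of letters and were not tested as binding sites.

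**Figure D2:**
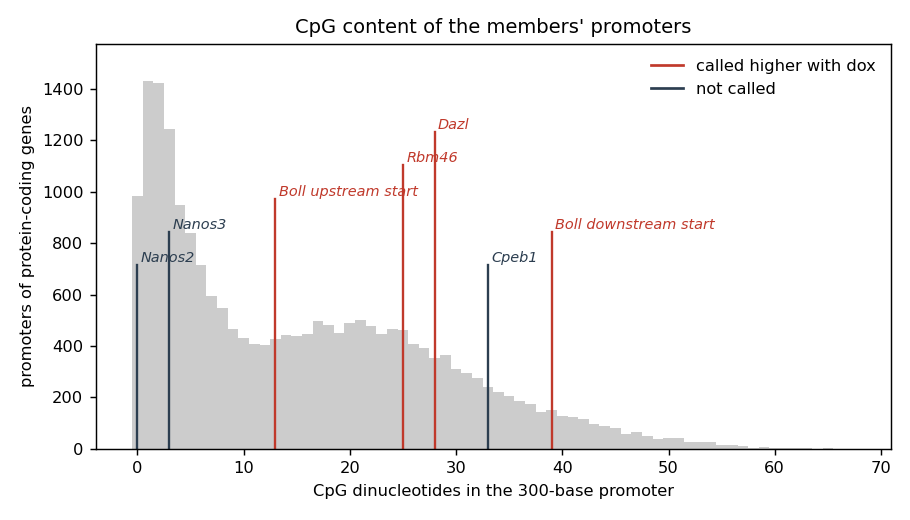
Number of CpG dinucleotides in the 300-base promoters of protein-coding genes (grey histogram, y axis the number of promoters), with a line for each window of the 6 matched members, red for genes that passed and dark blue for those that did not. The windows of Rbm46, Dazl and Cpeb1 and the downstream window of Boll hold 25 to 39 CpG, the upstream Boll window 13, and those of Nanos3 and Nanos2 hold 3 and 0; line heights carry no value.

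Within the pairs, each 1 array against 1 and without a test, 3 of the 7 genes were past 1.5-fold for hairpin 1, 4 for hairpin 2 and 0 for scrambled, all of them higher. Of all genes, the share past 1.5-fold upward was 0.627% for hairpin 1, 2.17% for hairpin 2 and 1.48% for scrambled. The share past it downward was 0.241%, 0.446% and 0.211% in the same order. Dazl, Boll and Rbm46 were past it under both hairpins, as were 0.336% of all genes. Both induced hairpin arrays lay above the 4 others for 4 of the 7 genes, against 11.1% of all genes. For the 7 genes hairpin 1 gave a median of 0.49, hairpin 2 a median of 0.90 and the scrambled hairpin a median of -0.08. Boll, Dazl and Rbm46 changed by amounts within 0.25 of each other between the hairpins, and Cpeb1 by 0.58 more under hairpin 2, a difference that has no replicate.

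**Figure D3:**
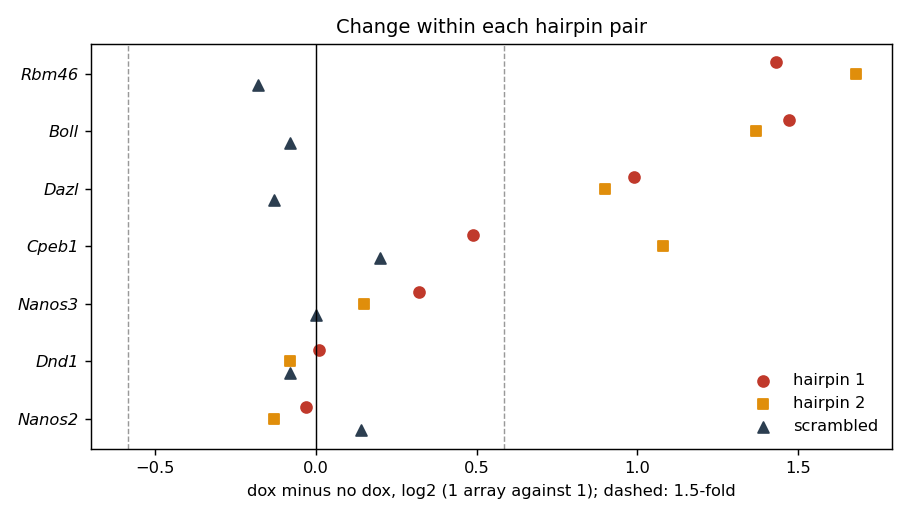
Dox minus no dox on the log2 scale (x axis) for each of the 7 genes (rows) in the hairpin 1 (circle), hairpin 2 (square) and scrambled (triangle) pairs, 1 array against 1, with dashed lines at 1.5-fold. Rbm46, Boll and Dazl lie at 0.90 to 1.68 under both hairpins and slightly below 0 in the scrambled pair; Cpeb1 is spread from 0.20 to 1.08.

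**Figure D4:**
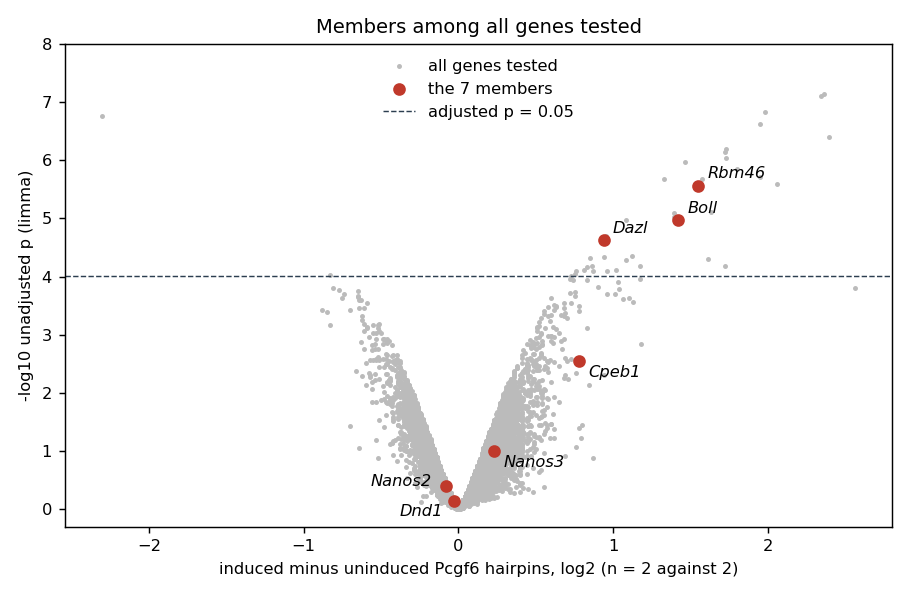
Change over both hairpins on the log2 scale (x axis) against -log10 of the unadjusted limma p (y axis) for all 19938 genes (grey) and the 7 members (red), with a dashed line where the adjusted p reaches 0.05. Rbm46, Boll and Dazl stand above the line among the highest genes, Cpeb1 below it, and Nanos3, Nanos2 and Dnd1 near the centre; the grey point far left is Pcgf6.

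Whether dox acted differently in Pcgf6-hairpin than in scrambled cells was tested as the difference of both changes, Pcgf6 hairpins minus scrambled. It was 1.73 for Rbm46 (SE 0.18, limma adjusted p = 0.0516), 1.5 for Boll (SE 0.20, adjusted p = 0.174) and 1.07 for Dazl (SE 0.15, adjusted p = 0.189). By limma 0 of the 7 genes passed, while 0.0702% of all genes did, 0.0652% as higher and 0.00502% as lower. An unadjusted p under 0.05 was found for 3 of the 7 genes and for 908 of all 19938 genes. With the hairpin line as a block, which pairs the arrays of a line, Rbm46 (adjusted p = 0.0411) and Boll (adjusted p = 0.0465) passed. Cpeb1 differed by 0.59 (SE 0.29), Nanos3 by 0.23 (SE 0.21), Dnd1 by 0.04 (SE 0.16) and Nanos2 by -0.22 (SE 0.15), each with an adjusted p of 0.999. The scrambled arrays are single and were taken to vary like the hairpin arrays. The block fit has fewer residual degrees of freedom than the main model.

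When the induced Pcgf6 hairpins were set against the 4 other arrays pooled, the same 3 genes passed. Rbm46 was higher by 1.58 (SE 0.09, limma adjusted p = 0.000189), Boll by 1.48 (SE 0.10, adjusted p = 0.000445) and Dazl by 0.88 (SE 0.08, adjusted p = 0.00424). Over all genes 0.351% passed as higher, 0.0602% as lower and 0.411% in either direction. Rbm46 and Boll passed without any 1 of the 6 arrays; Dazl did not pass without induced hairpin 1 (adjusted p = 0.0661) or induced hairpin 2 (adjusted p = 0.0750). Cpeb1 measured 0.71 (SE 0.14, adjusted p = 0.136), and Nanos3, Nanos2 and Dnd1 measured 0.07, -0.04 and -0.11. The feeder markers were all higher in the induced arrays here, 20 of 20 with a median of 0.55 and a range of 0.20 to 0.84, against a median of 0.71 for the 7 genes; 0 of the 20 passed, and their part in the members' values was not tested. This comparison shares its induced and uninduced hairpin arrays with those above. For uninduced Pcgf6 hairpins against uninduced scrambled, the 7 genes measured between -0.32 for Nanos3 and 0.16 for Nanos2. None of them passed by limma (smallest adjusted p 0.643), and 0 had an unadjusted p under 0.05; 0% of all genes passed, and 1607 genes had an unadjusted p under 0.05. The feeder marker level differed between these lines without dox, at 10.36 (hairpin 1) and 10.23 (hairpin 2) against 9.53 (scrambled).

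The wider post-transcriptional machinery was followed through lists named from general knowledge. In the change with dox under the Pcgf6 hairpins 0.201% of all genes passed, so 0 in a short list does not set it apart. Of the more widely expressed relatives of the 7 genes, 0 of 8 passed, with a median change of 0.06. Cpeb2 measured 0.36 (SE 0.14, limma adjusted p = 0.538) and Cpeb4 0.30 (SE 0.11, adjusted p = 0.538). Both were at most 0.12 with hairpin 1, at least 0.47 with hairpin 2 and 0.44 and 0.46 with the scrambled hairpin. The feeder markers were likewise higher with dox in the hairpin 2 and scrambled pairs, and their part was not tested. Cpeb3, the remaining paralogue of Cpeb1, measured 0.10, and Hnrnpr, a relative of Rbm46 and Dnd1, measured -0.15. Of 25 measured genes for binding partners and the deadenylation, polyadenylation and translation machinery, 0 passed, with changes between -0.28 for Cnot8 and 0.20 for Cnot6l and a median of -0.02. Cnot6, a deadenylase gene of the CCR4-NOT complex that NANOS proteins recruit, measured -0.23 (SE 0.09), and the antiproliferative gene Btg2 0.11 (SE 0.14).

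Other germ-cell genes for RNA-binding or translation proteins, outside the piRNA pathway, had 17 measured members with a median of -0.10. Of these 0 passed, against 0.201% of all genes. Meioc, the meiotic partner of Ythdc2, measured 9.41 and 9.29 with dox under hairpins 1 and 2, against 8.58 and 8.33 without, and 7.71 with and 8.56 without dox in scrambled cells. Its change was 0.90 (SE 0.11, adjusted p = 0.066), with -0.85 in the scrambled pair, so the pairs moved in opposite directions; the difference of 1.75 did not pass either (adjusted p = 0.0765). Ddx25, an RNA helicase gene of spermatids, measured 0.48 (SE 0.09, adjusted p = 0.193), and the Adad1 and Adad2 genes for testis adenosine deaminase domain proteins measured 0.48 (SE 0.12) and 0.36 (SE 0.11).

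Of 10 measured transcripts reported as bound or regulated by 1 of the 7 proteins, 1 passed as higher and 0 as lower. Of all genes 0.191% passed as higher and 0.01% as lower. The changes of these 10 transcripts lay between -0.35 and 1.72, 8 of them above 0, with a median of 0.38. Ddx4, a germ-cell RNA helicase gene whose message DAZL binds, measured 11.01 and 10.92 with dox under hairpins 1 and 2, against 9.30 and 9.20 without, and 9.08 with and 8.98 without dox in scrambled cells. It rose by 1.72 (SE 0.09, adjusted p = 0.00178) and also passed in the difference from scrambled (1.62, adjusted p = 0.0456). Sycp1, a synaptonemal complex gene whose message CPEB1 binds, measured 0.96 (SE 0.13, adjusted p = 0.0707), with -0.47 in the scrambled pair. Against the 4 other arrays pooled 2 of the 10 targets passed, Ddx4 by 1.83 (adjusted p = 0.000186) and Sycp1 by 1.1 (adjusted p = 0.0448). Tex19.1 measured 0.68 (SE 0.10, adjusted p = 0.0908) and Sycp3 0.42 (SE 0.18, adjusted p = 0.590), with -0.32 and -1.16 in the scrambled pair. The arrays read RNA level and not translation or binding.

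**Figure D5:**
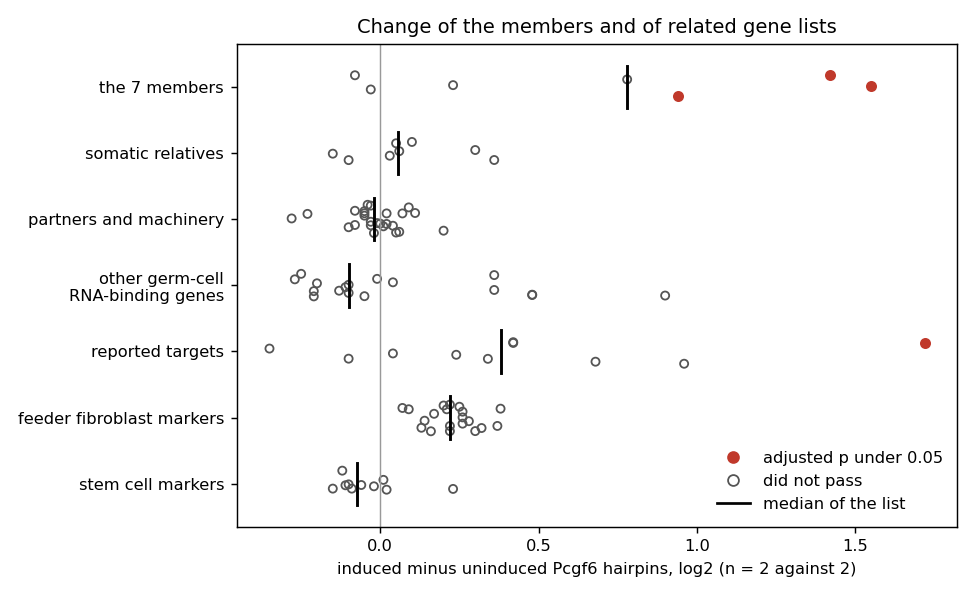
Change over both hairpins on the log2 scale (x axis) for each measured gene of the 7 members and of 6 related lists (rows), filled red where the limma adjusted p is under 0.05 and open otherwise, with a black bar at the median of the list. The passing points are Rbm46, Boll and Dazl among the members and Ddx4 among the reported targets; the relatives lie between -0.15 and 0.36, the partners and machinery between -0.28 and 0.20, and the feeder markers between 0.07 and 0.38.

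The genes whose profile was most like that of a member were found for the 4 members that ranged over at least 1 log2 unit. Likeness was the Euclidean distance between profiles over the 6 arrays, each centred on its own mean, as a description. Boll was closest to Rbm46 (distance 0.25), then to the germ-line Argonaute gene Piwil2 (0.29) and the meiotic chromosome gene Hormad2 (0.30). Rbm46 was closest to Tdpoz3 (0.23), Piwil2 (0.23) and Boll (0.25). Dazl was closest to Prxl2a, a peroxiredoxin-like gene, at 0.12; Prxl2a measured 11.28 and 11.42 with dox under hairpins 1 and 2, against 10.35 and 10.48 without, and 10.57 with and 10.64 without dox in scrambled cells. Tex101 (0.24) and the ketone metabolism gene Acat1 (0.26) followed. Cpeb1 had other neighbours, Hspa4l (0.22), Fam174b (0.23) and Niban1 (0.26). Those 3 changed by 0.17 to 0.43 under hairpin 1 and 0.91 to 1.04 under hairpin 2, and none of them passed (adjusted p between 0.22 and 0.513).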

How the data were processed

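Expression was measured in 6 samples, 1 array each. The log2 values deposited by the authors came from RMA in Affymetrix Power Tools, per the submitters' processing notes. RMA gives all arrays a common distribution, which removes a change shared by most genes; no version or option is given in the sources used here. Platform annotation gave 1 gene symbol to 21789 of 35556 probe sets; symbols were updated by Entrez identifier through RefSeq (GRCm38.p6). The brightest probe set stood for each of 999 genes that had more than 1. All 19938 genes were tested, with no filter. Values ran from 2.28 to 14.27, array medians from 7.02 to 7.08 and correlations between arrays from 0.991 to 0.996, at most 0.0984% of probe sets held the same value on a pair of arrays, and 0 value columns were unmatched.

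Tests used limma 3.58.1 in R 4.3.3, two-sided, with Benjamini-Hochberg adjustment over all genes and a threshold of 0.05. A model with 1 mean for each of 4 groups (2 residual and 4.44 prior degrees of freedom) gave the change with dox, its difference from scrambled and the uninduced comparison. A model of 2 groups (4 residual and 4.01 prior degrees of freedom) gave the pooled comparison. SE are moderated standard errors. Fits with 1 array left out, and fits with the block, have fewer residual degrees of freedom than the main models. A call lost there may be a loss of precision only. The labels give 1 array with and 1 without dox for each hairpin line, so the hairpin number pairs them; deviations of same-numbered arrays correlated at 0.174 across genes. The code was tested on simulated data. Genes named are the 7 members, Pcgf6, in each list those that passed and up to 4 with the largest change, the 3 nearest profiles of each member that ranged over 1 log2 unit or more (predicted gene models and olfactory and vomeronasal receptors skipped), and, in the closing section, genes next to a member on its chromosome. The members, lists and rules were chosen with earlier results of these data known. Pabpc4 and Ccnb1 had no probe set of their own and were not used here. Alternatives covered normalization, dim genes, probe sets, the block, an intensity trend and leaving out arrays.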

Additional observations from a re-analysis of the deposited data

How the results depend on the processing

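In the change with dox under the Pcgf6 hairpins, 3 of the 7 genes and 40 genes in all passed. With any 1 hairpin array left out, 1 to 2 of the 7 and 14 to 26 genes in all passed, and Rbm46 was the 1 that always did. Without the dimmest 50% of genes, which leaves out Boll, Rbm46 and Nanos2, 1 of the remaining 4 (Dazl) and 7 genes in all passed. With all probe sets tested singly, 1 of the 7 passed (Rbm46), as Boll (adjusted p = 0.0905) and Dazl (adjusted p = 0.112) did not. An intensity trend gave 62 genes in all, and the same 3 members. Renewed quantile normalization, both forms of median centring, the replicate block, the mean over probe sets and the fit without the dimmest 25% of genes kept 3 members.

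In the difference from scrambled, 0 of the 7 genes and 14 genes in all passed. Of the 7, 1 passed (Rbm46) with the mean over probe sets (adjusted p = 0.0449), an intensity trend (adjusted p = 0.0426) or median centring over the genes tested, an alternative chosen after seeing the data, and 2 passed with the replicate block. Genes in all numbered 4 with median centring over all probe sets (3 of them higher), 22 with median centring over the genes tested, 9 without the dimmest 25%, 4 without the dimmest 50%, 0 with all probe sets, 23 with the replicate block, and 0 to 4 with 1 hairpin array left out. A scrambled array cannot be left out here.

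In the pooled comparison, 3 of the 7 and 82 genes in all passed. The numbers were 1 (Dazl) and 38 without the dimmest 50%, 3 and 39 with the replicate block, and 2 to 3 and 24 to 81 with 1 array left out. For the uninduced comparison 0 genes passed under all alternatives run, and a block by line could not be fitted. Reversed signs occurred among small values that never passed. With 1 array left out, Dnd1 ran between -0.10 and 0.03 in the change with dox and between -0.02 and 0.11 in the difference from scrambled. Nanos3 ran between -0.03 and 0.13 in the pooled comparison, and in the uninduced comparison Rbm46 ran between -0.14 and 0.07 and Cpeb1 between -0.31 and 0.21. The turned sign came without uninduced hairpin 1 for the Dnd1 difference and Nanos3, and without uninduced hairpin 2 for the others. The causes were not tested. The replicate block changed no other call of a member. Groups of 2 arrays, and single scrambled arrays, limit the precision of every value.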

Other observations

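The genes next to each member on its chromosome were examined, as the 2 nearest measured protein-coding genes on each side by RefSeq order, 28 in all; they were chosen by position, after the members' values had been seen. By limma 0 of the 28 passed in the change with dox under the Pcgf6 hairpins, against 0.201% of all genes. At that share a count of 0 in 28 does not set them apart. Their changes lay between -0.42 and 0.41. Beside Rbm46 (1.55), the neuropeptide receptor gene Npy2r measured 0.04 and the retinol acyltransferase gene Lrat 0.16. Beside Boll (1.42), the mitochondrial methionyl-tRNA synthetase gene Mars2 measured 0.06 and Plcl1 0.18. Beside Dazl (0.94), Rftn1 measured 0.36 (SE 0.13, adjusted p = 0.527), of which 0.12 under hairpin 1 and 0.60 under hairpin 2, and Plcl2 measured 0.16. Beside Cpeb1 (0.78), Ap3b2, which encodes a neuronal adaptor protein subunit, measured 0.41 (SE 0.10, adjusted p = 0.367); its pairs gave 0.37 for hairpin 1, 0.44 for hairpin 2 and -0.12 for scrambled.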
